A study of Homo sapiens with 21 samples.

Results

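Senescent human fibroblasts with knockdown of cyclin D1 were compared with senescent fibroblasts with knockdown of both of its catalytic partners, CDK4 and CDK6. The comparison used 6 of the 21 libraries of the series, 3 with siRNA against CCND1 and 3 with siRNA against CDK4 together with CDK6 (the dual knockdown). Of the 16383 genes listed, 11029 were tested, namely those with a normalised read count of at least 10 in at least 3 of these 6 libraries. The cell line was IMR90, normal fibroblasts from human lung that have long been in use. Both groups were irradiated to make them senescent, given 5 nM siRNA with the lipid reagent DharmaFECT on day 4 and again on day 7, counted from irradiation, and lysed for poly(A) RNA on day 10. Their background was 6 libraries treated alike with a non-targeting siRNA, 3 with the one called NT3 and 3 with NT4 in the sample titles, whereas the series description numbers these controls 1 and 2. Further libraries of the series, 3 each, came from proliferating cells without irradiation, from CDK4 knockdown and from CDK6 knockdown. Each target has a single siRNA name in the labels, without its sequence, so an effect outside the target cannot be told apart from an effect of losing the target. The labels do not say whether replicates were separate cultures, so the p-values measure the spread between these libraries, which may be technical.

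The 3 CCND1 knockdown libraries held 15455036, 15529470 and 16939567 reads in the listed genes and the 3 dual knockdown libraries 15795510, 15466207 and 17044175. Among cell type markers, the fibroblast genes had by far the highest summed level in the 6 libraries. COL1A1, a type I collagen chain, was the most abundant gene in every library of the series. The epithelial markers KRT5, KRT14 and NKX2-1 and the immune marker TYROBP were at 0 in all 6 libraries. Other markers of these cell types were expressed, with the epithelial KRT18 at 1038 to 1541 and KRT8 at 274 to 412. Summed immune markers reached 890.9 to 1056 in CCND1 knockdown and 936 to 1014 in dual knockdown. The third NT3 library stood apart, with an SD of its log2 deviations from its group mean of 0.308 against 0.150 to 0.208 in the other 20 libraries. It enters no difference between the compared groups, but it enters the spread shared by all groups.

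D-type cyclins bind and activate the kinases CDK4 and CDK6, which phosphorylate the retinoblastoma protein RB and its relatives and so free E2F factors to switch on genes of DNA replication. When RB family proteins are unphosphorylated, E2F sites and cell cycle homology region (CHR) elements are occupied by repressor complexes, among them the DREAM complex, and genes of S phase and mitosis stay low. Senescent fibroblasts have left the cycle, keep cyclin D1 abundant, and secrete inflammatory cytokines and proteases, the senescence-associated secretory phenotype (SASP), with a type I interferon response in late stages.

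Promoter stretches of genes from 3 of the groups described below are shown because they hold the element by which each group is known. Sequences are RefSeq promoter windows on GRCh38.p14, from 250 bases before to 50 after the annotated gene start, and are printed along the strand of the gene. Capitals mark a match, on either strand, to the CHR core TTTGAA (MKI67, TOP2A), the E2F core TTCCCGC (CLSPN) or the core GAAACT of the interferon-stimulated response element, ISRE (OAS3, IFI44L). The stretches lie at chr10:128126412-128126487 (MKI67, minus strand), chr17:40418007-40418082 (TOP2A, minus), chr1:35769959-35770018 (CLSPN, minus), chr12:112938296-112938371 (OAS3, plus) and chr1:78620306-78620381 (IFI44L, plus).
MKI67: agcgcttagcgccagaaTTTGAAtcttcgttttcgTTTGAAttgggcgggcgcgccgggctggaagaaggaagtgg
TOP2A: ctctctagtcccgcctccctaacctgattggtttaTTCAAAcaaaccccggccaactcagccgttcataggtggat
CLSPN: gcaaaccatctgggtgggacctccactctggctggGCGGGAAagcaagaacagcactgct
OAS3: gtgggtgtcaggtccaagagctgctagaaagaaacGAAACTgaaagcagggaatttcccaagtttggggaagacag
IFI44L: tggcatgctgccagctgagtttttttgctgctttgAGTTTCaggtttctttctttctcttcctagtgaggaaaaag
MKI67 held a pair of CHR cores just upstream of its start. The printed CHR core of TOP2A lay further upstream, as did the ISRE cores of OAS3 and IFI44L.

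The CHR core was found in 31 of the 44 tested G2 and mitosis genes with a window (70.5%), against 9.87% of the 9015 tested genes with a window and 15.4% of all 27305 windows. For S phase genes it was 4.35%, but 19 of 46 held the E2F core (41.3%, against 10.4% of tested genes and 6.56% of all windows). Among interferon-stimulated genes 25 of 36 held the ISRE core (69.4%, against 12.6% and 15%). The CCAAT box, which often accompanies the CHR, was in 70.5% of the G2 and mitosis genes, 36.7% of tested genes and 35.7% of all windows. Short cores also match by base composition, the CHR and ISRE cores can share 3 letters where they overlap, and a match is a description of these letters, not a binding site.

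Each siRNA lowered its own target, so the labels matched the libraries. CCND1 (cyclin D1, chr11:69641156-69654474) read 4552, 4198 and 5149 normalised counts in CCND1 knockdown and 55663, 57566 and 52700.4 in dual knockdown, with 25615 to 48813 over the 6 control libraries. The residual level after its own siRNA was 11.8% of the control mean, and all 3 dual knockdown libraries lay above all 6 controls. CDK4 (chr12:57747727-57752310) read 1072, 1073 and 1148 in CCND1 knockdown and 123, 114.7 and 115.1 in dual knockdown, which left 9.41% of the control mean. CDK6 (chr7:92604921-92836573) read 4853, 5318 and 5209.6 against 930.4, 975 and 998, which left 20.6%. Cells depleted of cyclin D1 mRNA therefore kept the mRNA of both kinases, with CDK4 at 88% and CDK6 at 108.9% of the control mean. Cells depleted of the kinase mRNAs kept abundant cyclin D1 mRNA. These are RNA levels, and protein was not measured here. The log2 differences, CCND1 minus dual knockdown, were -3.58 (SE 0.09, adjusted p = 4.93e-17) for CCND1, 3.21 (SE 0.07, adjusted p = 1.3e-18) for CDK4 and 2.40 (SE 0.09, adjusted p = 7.52e-14) for CDK6, by limma with adjustment over all tested genes. An exact two-sided permutation test over the 20 splits of 3 against 3 gave p = 0.1 for each, the smallest value it allows.

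Across all tested genes, 2341 (21.2%) passed the threshold of adjusted p = 0.05 between the groups, 1279 (11.6%) higher in CCND1 knockdown and 1062 (9.63%) lower. Large differences ran mostly one way. Of the 251 genes (2.28%) past the threshold by more than 1 on the log2 scale, 233 (2.11%) were higher in CCND1 knockdown and 18 (0.163%) were lower. Values of the 3 libraries did not overlap between groups for 4641 genes (42.1%), 2324 of them (21.1%) higher in CCND1 knockdown and 2317 (21%) lower. In promoter windows, 14.4% of the higher genes held the CHR core, as did 28.9% of those higher by more than 1 on the log2 scale and 7.89% of the lower genes. Without the third NT3 library the shared spread was smaller and 3520 genes passed, among them the same 2341 genes. Because these are bulk samples, fewer cells that express a gene and less of its RNA per cell cannot be told apart.

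**Figure D1:**
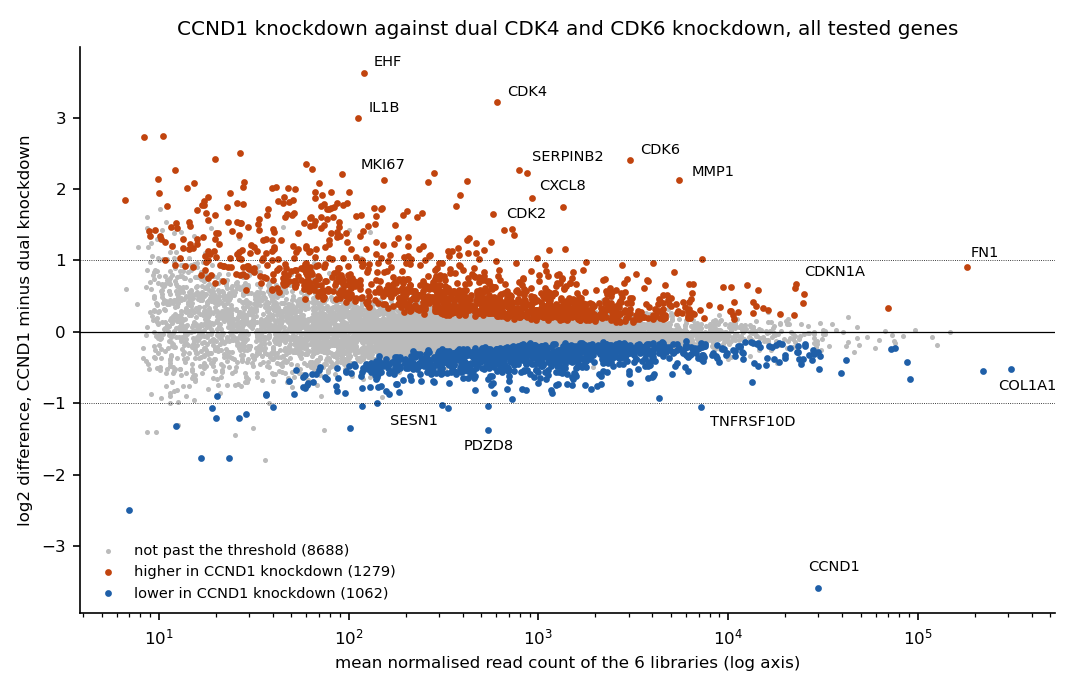
Difference between CCND1 and dual knockdown (log2, y axis) against the mean normalised read count of the 6 libraries (log axis) for the 11029 tested genes, with genes past the threshold coloured by direction and dotted lines at 1 and -1. Most points beyond the upper dotted line are coloured, whereas few lie beyond the lower one, where CCND1 itself stands apart at -3.58.

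With the targeted genes set aside, the 10 largest positive differences among abundant genes with separate libraries included genes of inflammation, the matrix and the cell cycle. SERPINB2, an inhibitor of plasminogen activators, read 1195, 1298 and 1466 in CCND1 knockdown and 254, 283 and 278 in dual knockdown (difference 2.27 (SE 0.11, adjusted p = 7.91e-12)), with 1011 to 1746 in controls. MMP1, an interstitial collagenase, read 8661, 8926 and 9261 against 1994, 2190.4 and 1955 (difference 2.13 (SE 0.09, adjusted p = 1.67e-13)), with 5856 to 7986 in controls. For SERPINB2 the CCND1 knockdown libraries lay within the range of the controls and for MMP1 they lay above it, while the dual knockdown libraries lay below it for both genes. TMEM132A, a transmembrane protein, read 1896, 2011 and 2367 against 702, 595 and 573 (1.74 (SE 0.11, adjusted p = 4.39e-10)). POU2F2, the octamer-binding factor OCT2, read 897, 984 and 1338 against 373, 391 and 401 (1.44 (SE 0.14, adjusted p = 1.61e-07)). The rest of the 10 were CXCL8, RRM2, OAS3, C3, TOP2A and CDK2, described with their groups.

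The core cell cycle machinery differed in some parts and not in others. The list of D-type cyclins, their kinases and inhibitors had 16 of 18 genes tested. Of these, 6 were higher in CCND1 knockdown (37.5%, against 11.6% of all tested genes) and 3 were lower (18.75%, against 9.63%). The 3 targeted genes are among these 9. CDK2, the kinase that acts with cyclins E and A after CDK4 and CDK6, read 902, 839.7 and 899 in CCND1 knockdown and 252, 328 and 264 in dual knockdown, with 896 to 1199 in controls. It was 3.14-fold higher in CCND1 knockdown by the fitted difference (log2 difference 1.65 (SE 0.08, adjusted p = 1.57e-12)), with no overlap between libraries. CDKN1A, the p53-induced inhibitor p21, read 28132, 27345 and 28575 against 17254, 17118 and 18429, with 28151 to 30843 in controls (difference 0.67 (SE 0.05, adjusted p = 3.75e-09)). Both this inhibitor and the kinase that it inhibits were thus lower in dual knockdown than in CCND1 knockdown. CDKN1B, the inhibitor p27, went the other way, at 421, 416 and 364 against 513, 536 and 615 (-0.47 (SE 0.11, adjusted p = 0.00451)).

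The other D-type cyclins differed little. CCND2 read 4749, 5040.1 and 4693 in CCND1 knockdown and 4707, 4920.2 and 4287 in dual knockdown, against 3314 to 4240.1 in controls. All 6 knockdown libraries of CCND2 lay above all 6 controls, and the difference between the knockdowns was 0.06 (SE 0.06, adjusted p = 0.539), with a 95% interval of -0.07 to 0.18. CCND3 read 2258, 2254 and 2272 against 2641, 2440.5 and 2634, a difference of -0.18 (SE 0.06, adjusted p = 0.0372) that did not pass in 9 of 18 alternative settings. The INK4 inhibitors p16 and p15 also did not pass, with differences of -0.03 for CDKN2A (95% interval -0.27 to 0.22, adjusted p = 0.907) and 0.01 for CDKN2B (95% interval -0.19 to 0.21, adjusted p = 0.966). How reads were assigned to these neighbouring genes is not stated. Both groups were below controls for both genes, with means of 133 and 135 for CDKN2A against 188 to 252, and 281 and 279.8 for CDKN2B against 467 to 513.

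**Figure D2:**
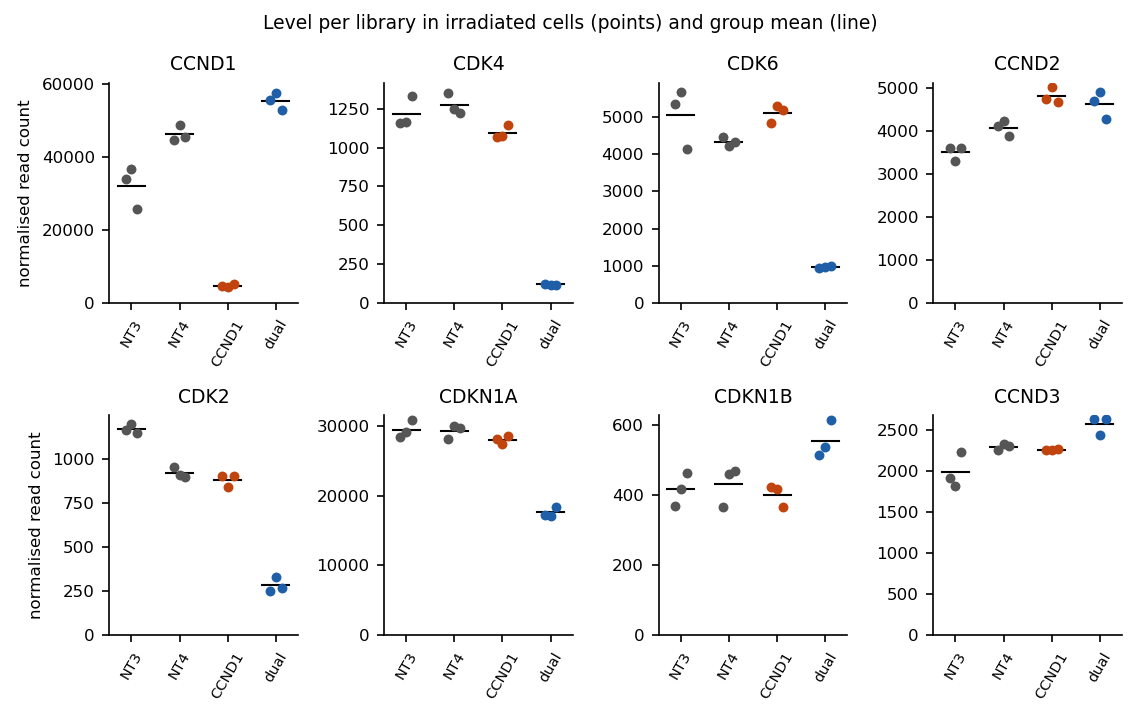
Normalised read counts (y axis, from 0) of 8 cell cycle genes in each library of the NT3, NT4, CCND1 knockdown and dual knockdown groups, with lines at group means. CCND1, CDK4 and CDK6 are low only where they were targeted among these 4 groups, CDK2 and CDKN1A are lowest in the dual knockdown, and CCND2 is similar in both knockdowns.

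Of the RB pocket proteins, E2F factors and DREAM subunits, 17 of 21 were tested, with a median difference of 0.09. In CCND1 knockdown 5 were higher (29.4%, against 11.6% of all tested genes) and 3 lower (17.65%, against 9.63%). The higher genes included those that are themselves E2F or DREAM targets. MYBL2, the B-MYB subunit that activates mitotic genes, read 87.2, 107.8 and 121 against 29.8, 27.3 and 26.03 (1.88 (SE 0.15, adjusted p = 8.94e-09)). FOXM1, its partner factor, read 325, 321 and 284 against 100.4, 85.2 and 100.1 (1.69 (SE 0.09, adjusted p = 2.15e-11)), with 448 to 585 in controls. E2F1, an activator E2F, differed by 0.66 (SE 0.11, adjusted p = 0.000203) and RBL1, the pocket protein p107, by 0.71 (SE 0.16, adjusted p = 0.00205). RB1 itself read 1035, 1109 and 994 against 903, 985 and 1043, a difference of 0.10 that did not pass (95% interval -0.09 to 0.29, adjusted p = 0.494).

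Genes of DNA replication were higher in CCND1 knockdown than in dual knockdown. All 53 S phase genes were tested, and 40 were higher in CCND1 knockdown (75.5%, against 11.6% of all tested genes). None was lower and 13 did not pass. The median difference of the list was 0.56, between 0.43 and 0.60 over the alternative settings. RRM2, the inducible subunit of ribonucleotide reductase, read 669, 755 and 621 against 136, 179 and 155, with 1079.5 to 1451 in controls (2.12 (SE 0.12, adjusted p = 4.06e-11)). CLSPN, the checkpoint adaptor claspin whose E2F core is printed above, read 101.03, 104.6 and 112.9 against 26.5, 22.9 and 31.03 (1.95 (SE 0.14, adjusted p = 3.19e-09)). CDC45, part of the replicative helicase, read 38.3, 36.3 and 37.3 against 4.41, 14.2 and 11.01 (1.94 (SE 0.28, adjusted p = 2.66e-05)). For each of these 3 genes both knockdowns lay below all 6 controls, and the dual knockdown lay lower. Of the E-type cyclins, CCNE2 differed by 1.64 (SE 0.27, adjusted p = 0.000123) and CCNE1 by 0.42 (SE 0.13, adjusted p = 0.0266), the latter not past the threshold in 5 of 18 alternative settings.

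The G2 and mitosis genes separated the groups. Of 55 genes on this list 52 were tested, 49 were higher in CCND1 knockdown (94.2%, against 11.6% of all tested genes) and none was lower. All 52 had separate libraries with CCND1 knockdown higher, against 21.1% of all tested genes, and the median difference was 1.38. Among the 25 with a mean of at least 100, 22 were higher and the median was 0.99. MKI67, the proliferation marker Ki-67, read 422, 417 and 433 in CCND1 knockdown and 86.1, 98.3 and 111.1 in dual knockdown, with 459 to 793 in controls (2.10 (SE 0.14, adjusted p = 1.27e-09)). TOP2A, the mitotic topoisomerase, read 579.6, 599 and 535 against 161, 149.6 and 195 (1.76 (SE 0.12, adjusted p = 1.05e-09)), with 849 to 1193 in controls. BIRC5, the survivin subunit of the chromosomal passenger complex, read 227, 273 and 249 against 57.4, 69.9 and 44.05 (2.13 (SE 0.14, adjusted p = 5.15e-10)). DLGAP5, a spindle protein, read 171, 142 and 142 against 30.9, 39.3 and 27.03 (2.20 (SE 0.15, adjusted p = 1.71e-09)). In each of these genes the controls were highest, CCND1 knockdown intermediate and dual knockdown lowest. The genes that did not pass were CCNF, SMC2 and INCENP. Cyclin A2 (CCNA2) stood at 197, 204 and 181 against 55.2, 110.3 and 86.1 (1.25 (SE 0.19, adjusted p = 6.27e-05)) and its partner CDK1 at 133, 137 and 104.04 against 32.01, 39.3 and 39.04 (1.73 (SE 0.15, adjusted p = 3.03e-08)).

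Against the 6 control libraries, which both comparisons share, 43 of the 52 G2 and mitosis genes were lower in CCND1 knockdown (median -0.66, with 14.8% of all tested genes lower) and 50 were lower in dual knockdown (median -2.13, with 21.2% lower). The corresponding S phase counts were 28 of 53 (median -0.35) and 49 of 53 (median -0.97). Expressed as the median member's log2 distance from the control mean, the G2 and mitosis list stood between -0.75 and -0.58 in the 3 CCND1 knockdown libraries, between -2.15 and -1.86 in the 3 dual knockdown libraries and between 2.73 and 2.77 in proliferating cells. Both knockdowns were therefore below irradiated controls and far below dividing cells.

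Several repair and chromatin genes were also higher in CCND1 knockdown than in dual knockdown. Of 27 tested homologous recombination and Fanconi genes, 15 were higher in CCND1 knockdown (55.6%, against 11.6% of all tested genes) and none lower. The list median was 0.55, but 0.18 over the 11 with a mean of at least 100. RAD54L, a recombination motor protein, read 35.1, 44.8 and 35.3 against 14.3, 12.01 and 17.02 (1.35 (SE 0.19, adjusted p = 2.25e-05)). BRIP1, a helicase that works with BRCA1, read 183, 187 and 141 against 77.3, 90.6 and 61.1 (1.15 (SE 0.15, adjusted p = 1.2e-05)). Of 22 tested lamina, HMG and chromatin genes 11 were higher (50%) and 1, LMNA, was lower (4.55%, against 9.63% of all tested genes). The list median was 0.24, with 7 higher without CCND1 knockdown replicate 1 or without dual knockdown replicate 1. LMNB1, the nuclear lamin B1 whose loss marks senescence, read 96.8, 108.8 and 76.6 against 30.9, 24.02 and 37.04, with 126 to 217 in controls (1.59 (SE 0.18, adjusted p = 1.01e-06)). EZH2, the Polycomb methyltransferase, read 87.2, 61.9 and 98.1 against 50.8, 38.2 and 46.05 (0.84 (SE 0.15, adjusted p = 0.000299)).

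The p53 targets split. Of 34 tested, 10 were higher in CCND1 knockdown (29.4%, against 11.6% of all tested genes) and 5 lower (14.7%, against 9.63%). The other 19 did not pass, and the list median was 0.11. Without CCND1 knockdown replicate 3, 6 were higher and 4 lower (median 0.07). CDKN1A led the higher genes, followed by GDF15, a stress-induced cytokine, at 2789.5, 2499 and 2823 against 1780.3, 1673 and 2018 (0.57 (SE 0.11, adjusted p = 0.000738)), and MDM2, the p53 ubiquitin ligase, differed by 0.32 (SE 0.06, adjusted p = 0.000509). TNFRSF10D, a decoy receptor for the death ligand TRAIL, went the other way at 4855, 4752 and 4509 against 9953, 9175 and 10141 (-1.05 (SE 0.09, adjusted p = 1.46e-08)), with 2916 to 5777 in controls. Here the dual knockdown lay above every control library. SESN1, a stress-induced inhibitor of mTORC1 signalling, read 215, 221 and 211 against 411, 491 and 464 (-1.07 (SE 0.10, adjusted p = 5.6e-08)), with 301 to 487 in controls, so that here it was CCND1 knockdown that lay below every control. In the BCL2 family 2 of 13 tested genes were higher in CCND1 knockdown (15.4%, near the 11.6% of all tested genes), PMAIP1 by 0.36 (SE 0.06, adjusted p = 0.000199) and BID by 0.34 (SE 0.08, adjusted p = 0.00288).

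Inflammatory genes made up the other large difference. Of 30 SASP cytokines and chemokines 22 were tested, and 16 were higher in CCND1 knockdown (72.7%, against 11.6% of all tested genes). None was lower and 6 did not pass, with a median difference of 1.39. Among the 10 with a mean of at least 100, 7 were higher and the median was 1.15. IL1B, an upstream cytokine of the SASP, read 156, 173 and 275 in CCND1 knockdown and 26.5, 18.6 and 27.03 in dual knockdown, with 177 to 774 in controls (2.99 (SE 0.27, adjusted p = 4.56e-08)). CXCL8, a neutrophil chemokine, read 1003, 1085 and 2268 against 263, 389.8 and 234 (2.22 (SE 0.30, adjusted p = 1.53e-05)), with 1601 to 6662 in controls. IL6, the best known SASP cytokine, read 452, 476 and 953 against 229.6, 259.9 and 219 (1.32 (SE 0.27, adjusted p = 0.00108)), with 408 to 2993 in controls. In each of these genes the dual knockdown lay below every control library, and the CCND1 knockdown libraries did not overlap it. CXCL10, a chemokine for T cells, differed by 2.23 (SE 0.25, adjusted p = 1.19e-06), IL1A by 2.01 (SE 0.40, adjusted p = 0.000881) and CCL2, a monocyte chemokine, by 0.98 (SE 0.17, adjusted p = 0.000203).

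Values within the CCND1 knockdown group were uneven for these genes. The library called replicate 3 was the highest of the 3 for 21 of the 22 tested SASP cytokines, 23 of 28 NF-kB genes and 42 of 46 interferon-stimulated genes, against 34.8% of all tested genes. Without that library 11 SASP cytokines were higher (median 1.08), 12 NF-kB genes (median 0.26) and 23 interferon-stimulated genes (median 0.60), and none on these lists was lower. In dual knockdown the library of the same set of consecutive library codes, replicate 2, was the highest for 10 of the 22 SASP cytokines, 13 of 28 NF-kB genes and 32 of 46 interferon-stimulated genes, against 36.3% of all tested genes. The NT3 and NT4 controls also differed: the median SASP cytokine stood 0.44 to 0.67 above the joint control mean in NT3 libraries and at -0.76 to -0.19 in NT4 libraries. The CCND1 knockdown libraries, at -1.04 to -0.44, overlapped the NT4 range, while the dual knockdown libraries lay at -2.46 to -2.27. What sets these differences between control siRNAs and between libraries was not tested.

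NF-kB is a transcription factor that drives many of these cytokines. The list of its pathway and feedback genes was also higher in CCND1 knockdown than in dual knockdown. The list's median difference from the controls was -0.35 in CCND1 knockdown and -0.75 in dual knockdown (log2), so both lay below controls. Of 28 tested, 16 were higher in CCND1 knockdown than in dual knockdown (57.1%, against 11.6% of all tested genes) and none lower (median 0.39). TNFAIP3, the feedback inhibitor A20, read 454, 496 and 847 against 187, 305 and 230.2 (1.29 (SE 0.22, adjusted p = 0.000196)). PTGS2, the inducible cyclooxygenase COX-2, read 429.6, 353 and 609 against 211, 211 and 196 (1.13 (SE 0.17, adjusted p = 5.11e-05)), with 929 to 2262 in controls, above both knockdowns. IRAK3, an inhibitor of interleukin-1 receptor signalling, differed by 1.21 (SE 0.16, adjusted p = 1.13e-05). Among AP-1 and immediate-early factors 10 of 29 tested genes were higher (34.5%) and 1, JUND, was lower (3.45%, against 9.63% of all tested genes). The list median was 0.24, with ATF3 at 514, 577 and 643 against 317, 432 and 275 (0.78 (SE 0.14, adjusted p = 0.00039)). DUSP4, a MAP kinase phosphatase, differed by 0.95 (SE 0.17, adjusted p = 0.000228). The median of that list was 0.13 without CCND1 knockdown replicate 3 and 0.15 without dual knockdown replicate 3, with 8 genes higher in each case.

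The secreted proteases, inhibitors and growth factors of the SASP were mixed, with a median of 0.31. Of 40 tested, 18 were higher in CCND1 knockdown (45%, against 11.6% of all tested genes) and 5 lower (12.5%, against 9.63%). SERPINB2 and MMP1 led. MMP3, stromelysin 1, read 348, 304 and 386 against 195, 233 and 208 (0.70 (SE 0.15, adjusted p = 0.00214)), and STC1, stanniocalcin 1, differed by 0.96 (SE 0.10, adjusted p = 3.54e-07). The 5 lower genes were ADAMTS2, MMP2, IGFBP7, TIMP2 and MMP14. ADAMTS2, which trims procollagen, read 1621, 1768 and 1435 against 2859, 2555 and 2571 (-0.73 (SE 0.10, adjusted p = 9.07e-06)), with 521 to 1416 in controls, so both knockdowns lay above every control.

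Interferon-stimulated genes were higher in CCND1 knockdown than in dual knockdown. Of 53 on the list 46 were tested, and 33 were higher (71.7%, against 11.6% of all tested genes). None was lower and 13 did not pass, with a median of 0.68. Among the 37 with a mean of at least 100, 25 were higher and the median was 0.53. OAS3, a sensor of double-stranded RNA whose promoter is printed above, read 602, 495 and 720.4 against 172, 212 and 109.1 (1.91 (SE 0.26, adjusted p = 1.49e-05)), with 794 to 1491 in controls. IFI44L read 99.97, 147 and 141 against 36.4, 36.03 and 39.04 (1.75 (SE 0.31, adjusted p = 0.000316)), with 436 to 695 in controls. RSAD2, the antiviral enzyme viperin, read 64.9, 61.9 and 105.999 against 23.2, 10.9 and 22.02 (2.02 (SE 0.30, adjusted p = 3.52e-05)). Both knockdowns lay below every control library for these 3 genes, the dual knockdown further. ISG15, a ubiquitin-like modifier, differed by 0.75 (SE 0.19, adjusted p = 0.00733).

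Complement and antigen presentation genes were higher in CCND1 knockdown at shares near the 11.6% of all tested genes, and none was lower. C3, the central complement component, read 1052, 1099 and 2258 against 399.5, 446 and 296 (1.87 (SE 0.37, adjusted p = 0.000927)). It was 1 of 2 higher genes among 11 tested complement genes (18.2%). Of 18 genes for MHC class I presentation 10 were tested, and how reads of these similar genes were assigned is not stated. NLRC5, an activator of MHC class I genes, was the 1 that passed (10%), and it did not pass in 7 of 18 alternative settings.

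**Figure D3:**
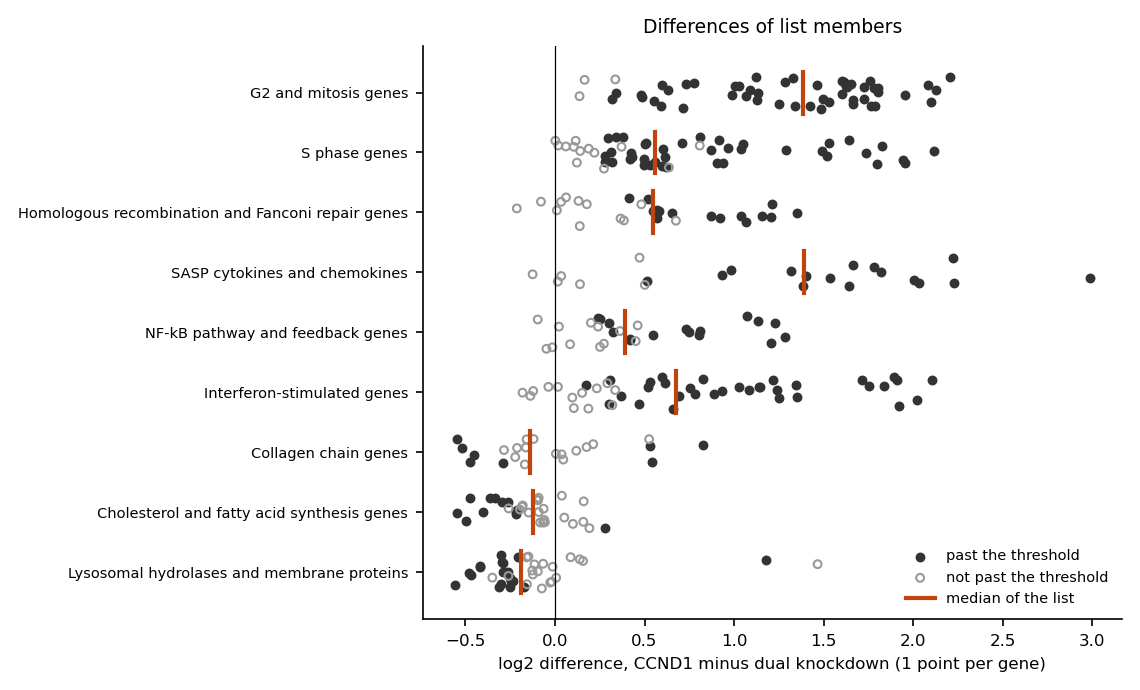
Log2 difference between CCND1 and dual knockdown (x axis) of each tested member of 9 gene lists, 1 point per gene at an arbitrary height, filled where past the threshold, with red lines at list medians. Nearly all G2 and mitosis genes lie right of 0 with a median of 1.38, cytokines spread widely around 1.39, and most lysosomal genes lie slightly left of 0.

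Differences in the other direction were smaller. Apart from CCND1 itself, the largest among abundant genes with separate libraries was PDZD8, which tethers the endoplasmic reticulum to other organelles, at 322, 260.3 and 333 in CCND1 knockdown and 798, 796 and 759.8 in dual knockdown (-1.37 (SE 0.11, adjusted p = 7.56e-09)), with 635 to 896 in controls. DUS1L, a tRNA dihydrouridine synthase, read 342, 385 and 341 against 722, 715 and 762 (-1.04 (SE 0.08, adjusted p = 6.73e-09)), with 497 to 692 in controls. For both genes CCND1 knockdown lay below every control library, whereas dual knockdown lay within the control range for PDZD8 and above it for DUS1L. SYNJ2BP, an outer mitochondrial membrane protein, read 515, 491 and 489 against 915, 1021 and 941 (-0.94 (SE 0.10, adjusted p = 2.99e-07)). UHMK1, a kinase of splicing factors, differed by -0.93 (SE 0.10, adjusted p = 1.03e-06) and USP24, a deubiquitinase, by -0.86 (SE 0.14, adjusted p = 0.000106).

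A second kind of lower gene was raised in the dual knockdown. DHTKD1, a mitochondrial dehydrogenase subunit of lysine breakdown, read 407, 428 and 408 against 790.3, 714 and 747 (-0.85 (SE 0.08, adjusted p = 1.26e-07)), with 240.3 to 579 in controls. ANXA3, a calcium-dependent membrane-binding protein, read 314, 341 and 357 against 620.3, 563 and 589.6 (-0.81 (SE 0.08, adjusted p = 3.78e-07)), with 297 to 476 in controls. TGFB2, a TGF-beta ligand, read 778, 800.2 and 968 against 1419, 1595 and 1444 (-0.81 (SE 0.14, adjusted p = 0.00015)), with 609 to 1250.0 in controls. For these 3 genes CCND1 knockdown lay within the control range and dual knockdown above it. GALNT7, a glycosyltransferase of O-linked chains, differed by -0.82 (SE 0.09, adjusted p = 1.44e-06). Unlike these genes, its dual knockdown libraries overlapped the controls, at 986, 1248 and 1070 against 424.7 to 1105.

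Among the 27 lists, that of lysosomal genes had the largest share of lower members. Of 38 tested, 18 were lower in CCND1 knockdown and 1 was higher, against 9.63% and 11.6% of all tested genes, with a median of -0.19. NPC2, a lysosomal cholesterol carrier, read 1051, 1064 and 1007 against 1554, 1436 and 1621 (-0.56 (SE 0.09, adjusted p = 0.000127)). LIPA, the lysosomal acid lipase, read 1095, 1097 and 1028 against 1526, 1412 and 1527 (-0.47 (SE 0.07, adjusted p = 3.08e-05)), and MCOLN1, a lysosomal calcium channel, differed by -0.48 (SE 0.10, adjusted p = 0.000935). CTSS, a cathepsin that interferon induces, was the exception at 95.7, 74.7 and 80.5 against 37.5, 36.03 and 35.04 (1.18 (SE 0.18, adjusted p = 4.29e-05)). Next came cholesterol and fatty acid synthesis, with 11 of 32 tested genes lower and 1 higher (median -0.12). FDFT1, squalene synthase, read 1343, 1295 and 1271 against 1803, 1824 and 1901 (-0.50 (SE 0.06, adjusted p = 9.78e-07)), and ACLY, which makes cytosolic acetyl-CoA, differed by -0.40 (SE 0.05, adjusted p = 2.17e-06). LSS, lanosterol synthase, had the list's largest difference (-0.55 (SE 0.19, adjusted p = 0.0401)) but did not pass in 6 of 18 alternative settings. Leaving out 1 library of either group left 6 to 9 lower genes on that list.

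Counts of oxidative phosphorylation and ribosomal protein genes depended on the estimate of the spread. For the 45 tested nuclear-encoded subunits of oxidative phosphorylation the median was -0.14. Of these, 5 were lower (11.1%, near the 9.63% of all tested genes) and none higher. NDUFB3, a subunit of complex I, read 449.9, 483 and 464 against 664, 657 and 632 (-0.48 (SE 0.13, adjusted p = 0.00894)). Without the third NT3 library, 20 were lower and 1 was higher, and 1 to 4 were lower when any 1 library of either group was left out. In that library the median member stood 0.45 above the control mean. None of 49 tested cytosolic ribosomal protein genes passed (median -0.06), and 7 lower and 1 higher passed without that library.

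Some fibroblast matrix genes also differed. Of 22 tested collagen chains, 3 were higher in CCND1 knockdown (13.6%, against 11.6% of all tested genes) and 5 lower (22.7%, against 9.63%), with a median of -0.14. Without the third NT3 library 5 were higher and 10 lower. The median was -0.07 without dual knockdown replicate 1 and lay between -0.16 and -0.01 over all alternative settings. COL1A2, a type I collagen chain, read 175842, 188874 and 172919 against 294850.0, 235283 and 258265 (-0.55 (SE 0.08, adjusted p = 5.15e-05)), with 146605 to 187683 in controls. COL1A1 read 247743, 270672 and 239940.0 against 419002, 314749 and 360767 (-0.52 (SE 0.10, adjusted p = 0.000521)). For this pair the dual knockdown lay above every control. Over the alternative settings the difference lay between -0.62 and -0.26 for COL1A2, which kept its call in each. Because COL1A1 is the most abundant gene of every library, quantile normalisation sets it to the same value in each and returns a difference of 0. FN1, fibronectin, went the other way at 242657, 236646 and 230788 against 136287, 120985 and 123290.0 (0.90 (SE 0.12, adjusted p = 1.53e-05)), with 105446 to 207907 in controls, and here CCND1 knockdown lay above every control. HAS2, a hyaluronan synthase, read 269, 277 and 333 against 82.8, 103.7 and 94.1 (1.64 (SE 0.12, adjusted p = 3.19e-09)), and SPARC, a collagen-binding glycoprotein, 70658, 72334 and 69436 against 116343, 106060.0 and 114053 (-0.66 (SE 0.07, adjusted p = 4.79e-07)). Over the 37 tested matrix glycoproteins, proteoglycans and elastic fibre genes 7 were higher (18.9%) and 6 lower (16.2%), or 7 and 10 without the third NT3 library (median 0.01).

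In CCND1 knockdown 6 of 28 tested contractile genes were higher (21.4%, against 11.6% of all tested genes) and 5 lower (17.9%, against 9.63%). The list median was 0.05, and 2 to 4 were lower when any 1 library of either group was left out. MYOCD, the smooth muscle coactivator myocardin, read 484, 497 and 599 against 229.6, 254 and 213 (1.17 (SE 0.12, adjusted p = 2.71e-07)), with 183 to 434 in controls. ACTA2, smooth muscle alpha-actin, read 6018, 5644 and 6429 against 4824, 4475 and 4524 (0.39 (SE 0.07, adjusted p = 0.000525)), with 2782 to 3440.0 in controls. For both genes CCND1 knockdown lay above every control library, and for ACTA2 so did dual knockdown. Marker sums of the 2 mesenchymal cell types also differed. The summed level of the 12 fibroblast markers, 3 of them collagens, was 548200 to 598400 in CCND1 knockdown, 684500 to 869900 in dual knockdown and 454400 to 565600 in controls. COL1A1 and COL1A2 made up most of this sum, so it largely repeats the collagen values. Of the 12 markers 5 were lower in CCND1 knockdown, 1, FBLN1, was higher (0.45) and 6 did not pass. The summed level of the 8 smooth muscle markers was 14140 to 15070 in CCND1 knockdown, 10960 to 11730 in dual knockdown and 7691 to 8749 in controls. Of the 7 tested, 4 were higher in CCND1 knockdown and none lower, with MYH11 below the filter. The median smooth muscle marker stood 0.83 to 1.02 above the control mean (log2) in CCND1 knockdown. In dual knockdown it stood at -0.30 to 0.09, so the raised sum there was not shared by the median member. Epithelial markers had 5 of 10 tested, of which KRT8 and KRT18 were lower, endothelial markers 3 of 8 and immune markers 2 of 9, with none past the threshold. The part of cell composition in the matrix and contractile differences was not tested.

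The remaining lists had medians near 0. Of 33 tested TGF-beta and activin genes 7 were higher (21.2%, against 11.6% of all tested genes) and 6 lower (18.2%, against 9.63%), with a median of 0.03 and with INHBA, an activin subunit, at 1569, 1569 and 1995 against 977, 1229.5 and 1075 (0.64 (SE 0.12, adjusted p = 0.000383)) and the BMP antagonist GREM1 at 0.55 (SE 0.11, adjusted p = 0.00101). YAP and TEAD targets had 1 of 19 higher and 3 lower, the higher one being NT5E, the ectonucleotidase CD73, at 14977, 14923 and 16067 against 9308, 10347 and 9558 (0.65 (SE 0.06, adjusted p = 7.81e-08)). Of 33 tested ATF4, amino acid and tRNA synthetase genes 8 were higher (24.2%) and 2 lower (6.06%), with a median of 0.08 and 5 higher without CCND1 knockdown replicate 3, and CHAC1, a glutathione-degrading enzyme, differed by 0.67 (SE 0.11, adjusted p = 0.000106). Endoplasmic reticulum folding genes had 1 higher and 1 lower of 23, or 5 and 3 without the third NT3 library. Glycolysis and hypoxia genes had 4 higher (13.3%) and 2 lower (6.67%) of 30, or 2 higher without CCND1 knockdown replicate 1 or without dual knockdown replicate 1 or 2, among them VEGFA, the endothelial growth factor, at 0.55 (SE 0.06, adjusted p = 1.69e-06) and P4HA2, a collagen prolyl hydroxylase, at -0.52 (SE 0.06, adjusted p = 3.62e-06). The medians of these 5 lists lay between -0.06 and 0.08.

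**Figure D4:**
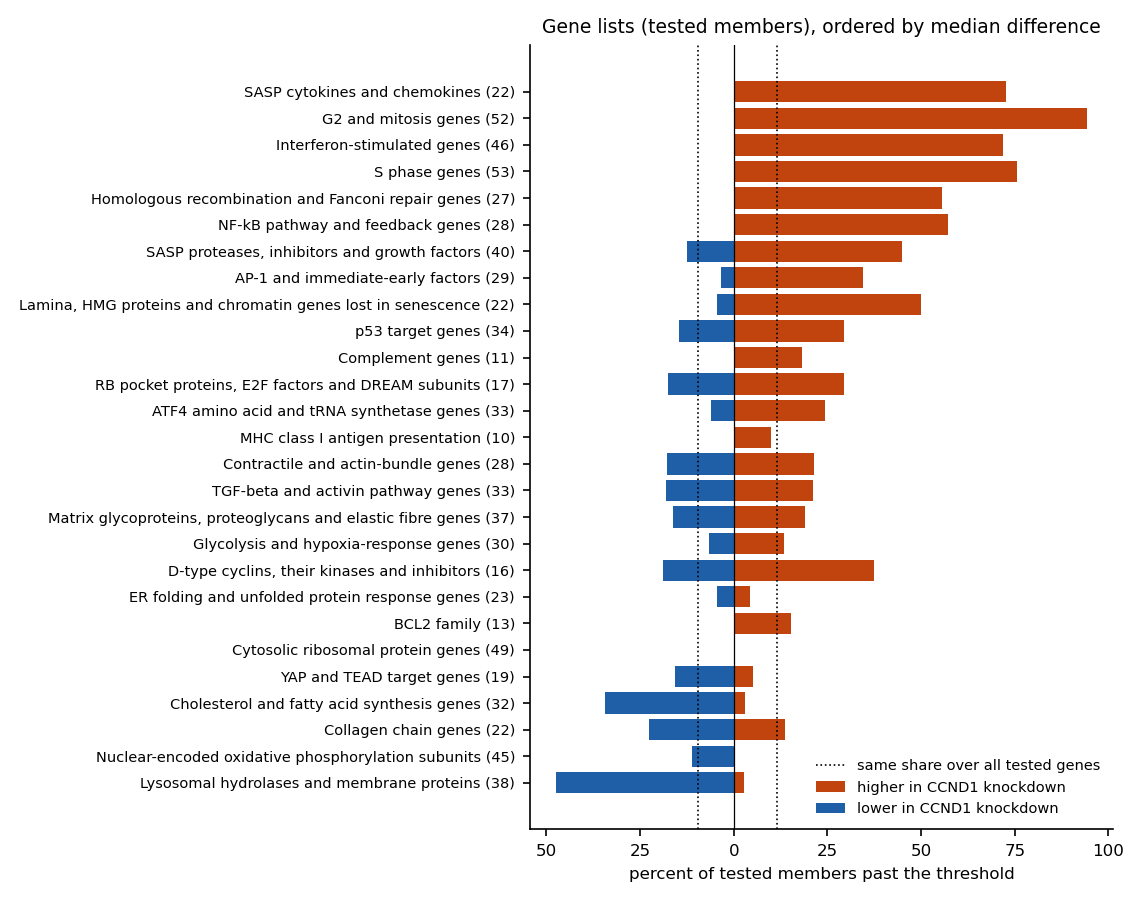
Share of tested members (percent, x axis) higher in CCND1 knockdown (right) or lower (left) in each of 27 gene lists, with the number tested in brackets and dotted lines at the shares of all tested genes, 11.6% and 9.63%. Cell cycle, cytokine and interferon lists extend far beyond the right line, and the lysosomal and cholesterol lists extend beyond the left one.

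The levels in the single knockdowns placed some of these genes. SERPINB2 averaged 1320 ± 137 in CCND1 knockdown (SD, n = 3), 1309 ± 91.8 in CDK4 knockdown, 316 ± 62.3 in CDK6 knockdown and 272 ± 15.6 in dual knockdown, so CDK6 and dual knockdown were both low. MMP1 averaged 8949 ± 301, 6207 ± 389, 3360 ± 487 and 2047 ± 126 in the same order. TMEM132A was lowest in dual knockdown at 623 ± 69.1 and next lowest in CDK4 knockdown at 992 ± 135, with 1576 ± 207 in CDK6 knockdown. TNFRSF10D averaged 4705 ± 178 in CCND1 knockdown, 5916 ± 489 in CDK4 knockdown, 5677 ± 533 in CDK6 knockdown and 9757 ± 512 in dual knockdown, which stood above every other group. CDK2 averaged 504 ± 8.28 in CDK4 knockdown and 485 ± 11 in CDK6 knockdown, between the 880.2 of CCND1 knockdown and the 281 of dual knockdown. These comparisons with the single knockdowns were not tested.

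**Figure D5:**
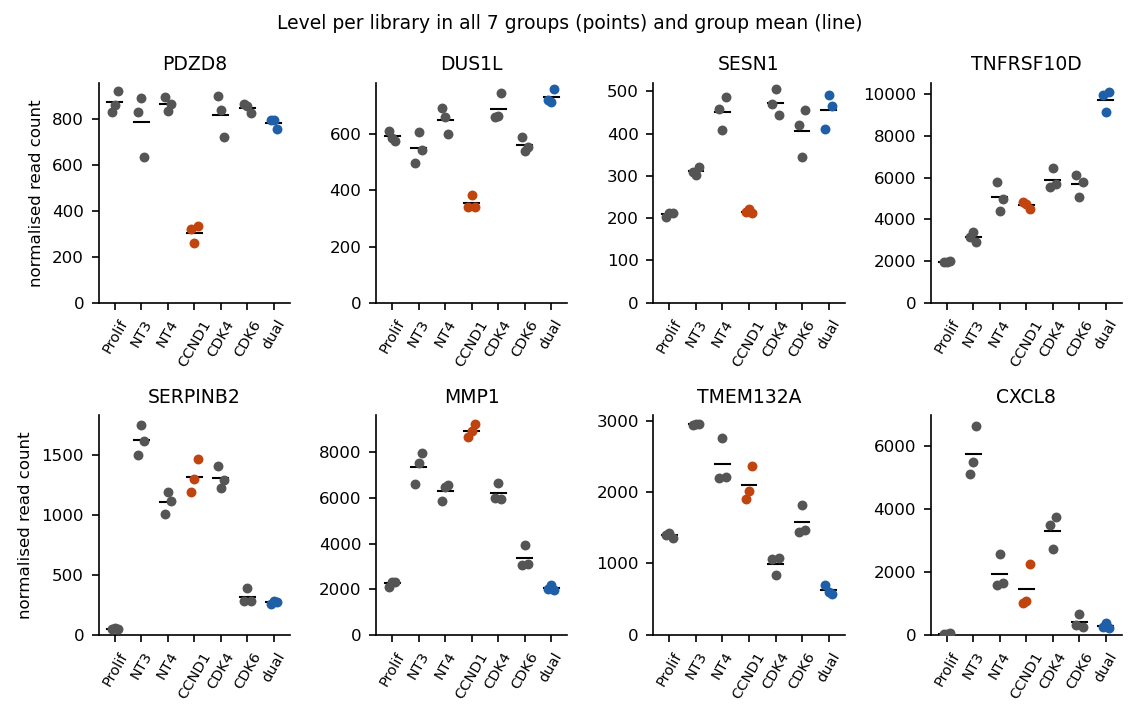
Normalised read counts (y axis, from 0) of 8 genes in each library of all 7 groups, with lines at group means. PDZD8 and DUS1L are lowest in CCND1 knockdown, TNFRSF10D is highest in dual knockdown, and SERPINB2, MMP1 and CXCL8 are low in CDK6 and dual knockdown compared with the other irradiated groups.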

How the data were processed

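RNA-seq of 6 libraries was compared within a table of 21. Per the file headers, the deposited table holds the authors' normalised counts, an expression signal per gene and library. The submitters' processing notes name Trimmomatic 0.38.1, HISAT2 2.2.1, featureCounts 2.0.3, FastQC 0.74, MultiQC, DESeq2 2.11.40.8 and the build hg38, with no role or order. In each library 100% of the values were whole multiples of 1 step within a tolerance of 0.1, so reads were recovered by division. How multi-mapping reads were assigned is not given in the sources used here. Of 16383 listed genes, 19 had no symbol.

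Values plus 1 were log2-transformed and modelled in R 4.3.3 by limma 3.58.1, with 1 mean for each of the 7 groups, a trended empirical Bayes spread over all 21 libraries and 14 residual degrees of freedom. Differences are on this scale, which understates the change of genes with low values. Tests were two-sided with Benjamini-Hochberg adjustment over 11029 genes and a threshold of 0.05. Replicate numbers follow the column order and are names only. Libraries of a group differed by more than sampling noise. As alternatives, pseudocounts of 0.1 and 10 were tried, then no filter, a mean of at least 100, median centring, quantile normalisation, the 6 libraries alone, the 18 irradiated libraries, each library left out, and count tests on the recovered reads with edgeR 4.0.16 and DESeq2 1.42.0, which called 2324 and 2495 genes. On counts simulated with independent noise, the changed genes that the fit called had the right sign. Only called genes were scored, so this sign check could hardly fail and does not bear on missed or false calls. An outlying library such as the third of NT3 was not simulated, so how the fit handles it was not tested.

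Named genes were the 3 targets, a panel of cell cycle and senescence genes, up to 4 members of each list past the threshold by size, and, targets aside, the 10 largest differences in each direction among genes with separate libraries and a mean in the higher group above 502.4. Genes named only to complete a count were chosen after their values were seen. The comparison, the panel and the 27 gene lists and 5 marker lists were chosen with earlier results of these data known, and list counts cover tested members only. Promoter windows were found for 9015 tested genes. Some named genes are not reported here.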

Additional observations from a re-analysis of the deposited data

How the results depend on the processing

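The column names carry no replicate number, but their library codes form 3 runs of consecutive codes with 1 library of each irradiated group in each. Deviations from the group means of CCND1 and dual knockdown libraries of the same run had correlations of 0.0426, 0.0876 and 0.0894 across genes. Between different runs they were lower, at -0.0908 to 0.0174. Over all irradiated groups the median was 0.0426 for 45 same-run pairs, 8 of them over 0.1. It was -0.0212 for 90 pairs of different runs, 5 of them over 0.1. The main fit did not treat the runs as pairs, although 13 of the 18 irradiated libraries were closest on average to their own run. With this run as a replicate block among the 18 irradiated libraries, an alternative chosen after seeing the data, 2157 genes passed (1201 higher, 956 lower, 255 beyond 1 on the log2 scale), against 2108 without the block. In the blocked fit 4 named genes lost their call, CCND3, CDKN2C, NDUFA4 and SDHB, of which CDKN2C passed in the 18 libraries without the block, and 3 oxidative phosphorylation genes were lower, against 1 without it. Of 132 named genes, 114 kept their side of the threshold in every alternative tried, 2 of which, CDKN2A and CDKN2B, were not past it and changed sign. The other 18 lost the call in at least 1 alternative with no change of sign. Leaving out 1 library of either group gave 1740 to 2076 genes past the threshold (980 to 1130 higher, 754 to 946 lower), 229 to 256 beyond 1 on the log2 scale, and differences of -3.66 to -3.51 for CCND1, 3.18 to 3.24 for CDK4 and 2.38 to 2.44 for CDK6. The lone pair left in that group was assumed to vary like the other groups. Fitted on the 6 libraries alone, 3203 genes passed, 1600 of them lower. Without the third NT3 library, an alternative chosen after seeing the data, 3520 passed, 1738 of them lower. Beyond 1 on the log2 scale, 166 genes passed with a pseudocount of 10 and 82 among genes with a mean of at least 100, fewer of which were tested. Of the genes past the threshold 54.63% were higher in CCND1 knockdown, 48.53% among genes with a mean of at least 100 and 58.09% after median centring. The shift of the median difference over all genes was 0.0103 with median centring and -0.00353 with quantile normalisation. Of list medians above 0.1 in size between the knockdowns, that of the endothelial markers changed sign, from 0.34 over 3 tested genes to -0.22 for the 1 with a mean of at least 100, and no other did. List medians against controls with NT3 alone or NT4 alone, also chosen after seeing the data, moved for several lists but enter no comparison between the knockdowns. Counts of a few reads limit the precision of genes such as CDC25C and CDC45.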

Other observations

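The list medians in the single knockdowns, which enter no comparison above, are given beside the others as the median member's log2 distance from the mean of the 6 controls. G2 and mitosis genes stood at 0.27 to 0.41 in the 3 CDK4 knockdown libraries and at -1.04 to -0.60 in the 3 CDK6 knockdown libraries, which overlapped the -0.75 to -0.58 of CCND1 knockdown. S phase genes stood at 0.02 to 0.12 in CDK4 knockdown, -0.59 to -0.56 in CDK6 knockdown and -0.35 to -0.28 in CCND1 knockdown. SASP cytokines stood at -0.22 to 0.06 in CDK4 knockdown and at -2.34 to -1.63 in CDK6 knockdown, against -1.04 to -0.44 in CCND1 knockdown. Interferon-stimulated genes stood at -0.29 to 0.07 in CDK4 knockdown and at -1.28 to -0.86 in CDK6 knockdown, which overlapped the -0.98 to -0.63 of CCND1 knockdown. No difference between these groups was tested here.

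Several single genes merit a second look and were chosen after their values were seen. EHF, an epithelial ETS-family transcription factor, had the largest positive difference of all tested genes in the contrast, 3.63 (SE 0.51, adjusted p = 2e-05 by limma). Its normalised counts were 161, 170 and 332 in CCND1 knockdown and 9.93, 39.3 and 10.0 in dual knockdown, with group means of 192 in CDK4 knockdown, 16.8 in CDK6 knockdown and 2.81 in proliferating cells. PDZD8 averaged 305 ± 39.1 in CCND1 knockdown (SD, n = 3) and between 785 and 875 in each of the other 6 groups. DUS1L averaged 356 ± 25.2 in CCND1 knockdown and between 550 and 733 in the other 6 groups. SESN1 averaged 216 ± 4.96 in CCND1 knockdown, close to the 209 ± 5.82 of proliferating cells, and 311 to 473 in the other irradiated groups. With 1 siRNA name for CCND1, effects of the reagent outside CCND1 cannot be told apart from effects of CCND1 for these genes.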
